A study of Mus musculus with 2 samples.

Results

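The 10 genes described here mark stromal cells, the fibroblast-like cells of marrow and connective tissue, and the matrix they secrete. They are Col1a1, Col1a2, Col3a1, Dcn, Lum, Sparc, Postn, Pdgfra, Pdgfrb and Cxcl12, and all 10 had a probe among the 23786 genes named on the arrays. The genes were chosen by name with their readings on these arrays already known, so every value below is a description and none is a test. The study read RNA of bone marrow-derived dendritic cells on 2 one-colour Agilent arrays. The sample labelled Egr1-deficient came from C57BL/6J mice labelled male and was read on 1 array, and the WT sample came from C57BL/6J mice labelled male and was also read on 1 array. EGR1 is a zinc-finger transcription factor. How the Egr1 deficiency was made, the age of the mice and the number of mice behind each sample are not given in the sources used here. Both cultures were started from femoral marrow, received GM-CSF at 10 ng/ml with fresh medium at intervals, and were harvested on day 6.

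Marrow stroma consists of reticular cells, fibroblasts, pericytes and bone-lining cells that do not arise from blood stem cells. Stromal cells secrete fibrillar collagens and small proteoglycans that bind the fibrils, carry receptors for platelet-derived growth factor (PDGF), and make the chemokine CXCL12, which holds blood stem cells and B cell precursors in the marrow. GM-CSF drives blood precursors towards dendritic cells, macrophages and granulocytes, so a culture of this kind is made up mainly of myeloid cells. In RNA of a whole culture, fewer cells of a type and less RNA per cell cannot be told apart.

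The values are processed signals, the scanner program's background-subtracted spot intensities on a linear scale. A probe is called well above background by that program's own flag. Of 59305 spots that are not controls, 59.8% were well above background on the Egr1-deficient-labelled array and 55.2% on the WT array, and the lowest signal so called was 13.3 on the Egr1-deficient-labelled array and 16.3 on WT. Among 308 negative control spots, which match no mouse transcript, 3 were called on the Egr1-deficient-labelled array and 4 on the WT array. Their average net signal was 41.3, which the file header marks as out of range, against 38.7 on the WT array. Egr1 read 1212 on the Egr1-deficient-labelled array and 379.7 on the WT array (1.61 log2 units higher), and its single probe cannot be placed relative to the targeted part. Xist, normally made in female cells, read 4559 on the Egr1-deficient-labelled array and 3425 on WT, while 6 of 7 probes of 4 Y-linked genes were called on neither array and the other, of Eif2s3y, read 27.1 on the Egr1-deficient-labelled array and 25.6 on WT. The Egr1 reading is the reverse of a loss of Egr1 RNA, but with its probe not placed it cannot settle the genotype label. The Xist and Y-linked readings go against the male label on both arrays. Each direction below therefore rests on the genotype labels as given. With 1 array per group there is no replicate error. Differences are log2 units, the Egr1-deficient-labelled array minus WT, after scaling each array to its 75th percentile. The error beside a difference is the scanner program's own error estimate for the spots, which covers 1 hybridisation and not the spread between cultures.

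The stromal genes were dim or not detected on both arrays. Col1a2, Pdgfrb and Cxcl12 were well above background on both arrays, which makes 3 of 10 genes, against 57.7% of all genes. Col1a1, Col3a1 and Dcn were well above background on the Egr1-deficient-labelled array only, again 3 of 10, against 5.45% of all genes. No member was above background on the WT array only, where the share of all genes was 1.62%. Lum, Pdgfra, Sparc and Postn were above background on neither array, 4 of 10, against 35.2% of all genes. The choice of the genes used this same comparison, so these shares are given side by side and nothing is read from them. By probe, the 10 genes had 18 probes in 36 spots, of which 3 probes were above background on both arrays, 3 on the Egr1-deficient-labelled array only and 12 on neither.

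**Figure D1:**
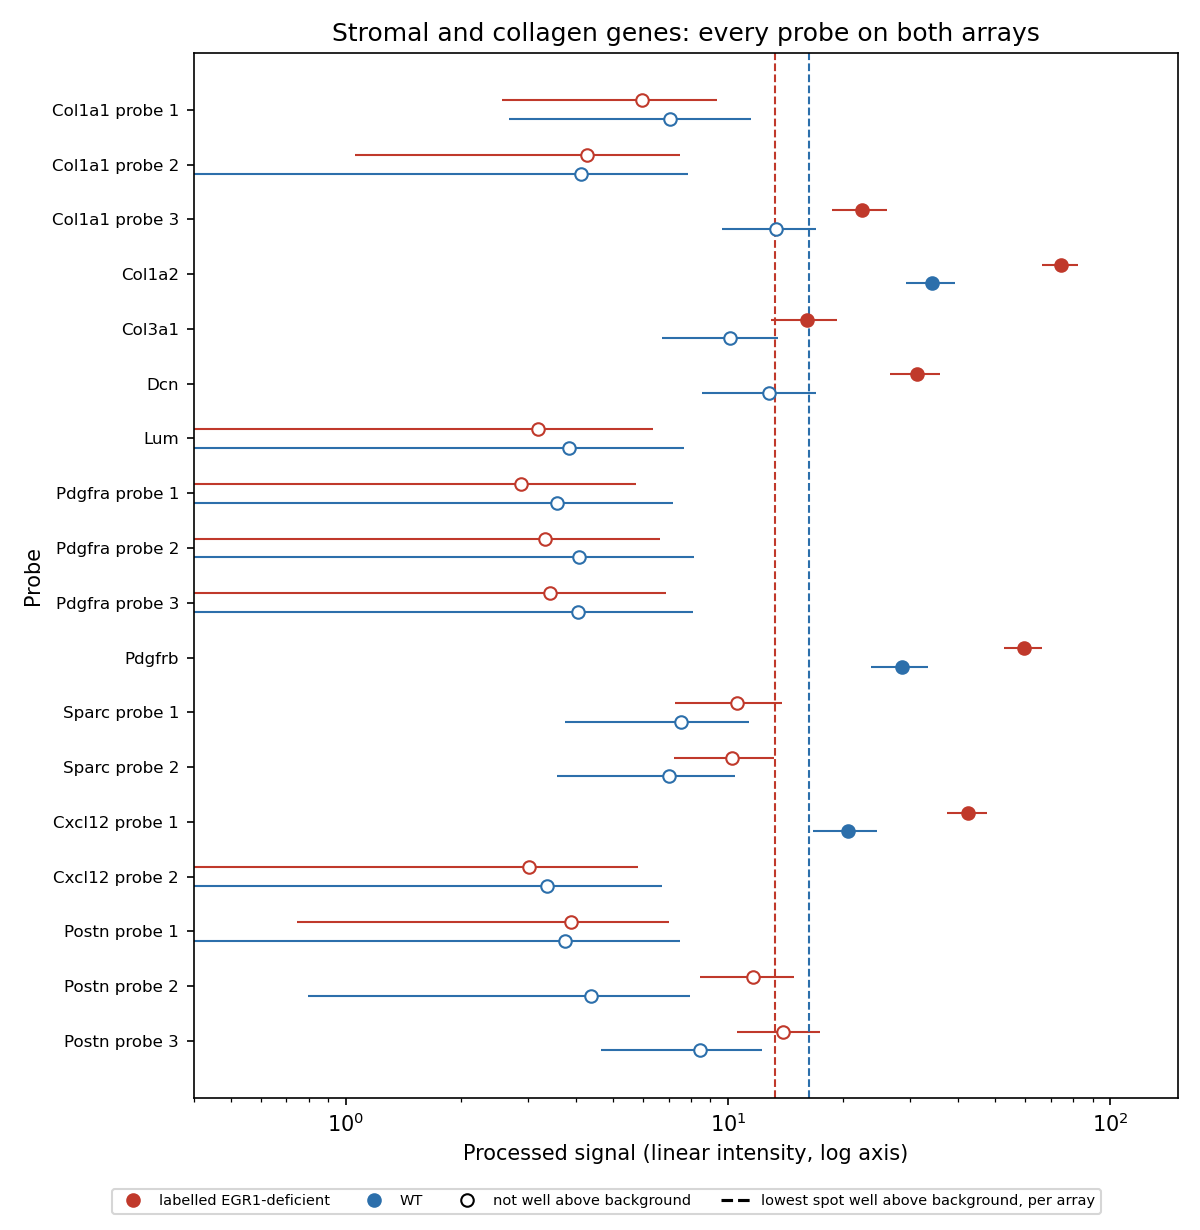
Processed signal (log axis) of all 18 probes of the 10 genes, with the Egr1-deficient-labelled array in red above the WT array in blue. Bars are the scanner program's error (those that reach 0 run off the left edge), filled points are well above background, and the dashed lines mark the lowest signal so called, 13.3 in red and 16.3 in blue. Only the probes of Col1a2, Pdgfrb and the first Cxcl12 probe are filled on both arrays.

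Type I collagen, the main fibrillar collagen of bone and of most connective tissue, is a trimer built from the chains encoded by Col1a1 and Col1a2. The Col1a2 probe (A_51_P182303, gene on chromosome 6) read 74.4 ± 8.0 on the Egr1-deficient-labelled array and 34.2 ± 5.0 on the WT array (scanner error). Both readings were well above background, and the Egr1-deficient-labelled array was the higher by 1.05 ± 0.26 log2 units, or 2.08-fold. Before any correction, the spot's median pixel was 133.5 on the Egr1-deficient-labelled array and 89 on the WT array, where the median negative control spot read 51 on the Egr1-deficient-labelled array and 48 on WT. The reading was thus low on the scale of these arrays on both sides, since the 75th percentile of all spots was 191.6 on the Egr1-deficient-labelled array and 183.0 on the WT array.

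The RefSeq promoter window of Col1a2 is shown because Col1a2 had the largest difference of the 3 members above background on both arrays. It lies at chr6:4505368-4505667 on the plus strand of GRCm38.p6 and runs from 250 bases before to 50 bases after the transcript start. It has 61% G and C, against a median of 52.7% over 32851 windows, and is printed in lower case throughout because it holds none of the motifs searched.
Col1a2: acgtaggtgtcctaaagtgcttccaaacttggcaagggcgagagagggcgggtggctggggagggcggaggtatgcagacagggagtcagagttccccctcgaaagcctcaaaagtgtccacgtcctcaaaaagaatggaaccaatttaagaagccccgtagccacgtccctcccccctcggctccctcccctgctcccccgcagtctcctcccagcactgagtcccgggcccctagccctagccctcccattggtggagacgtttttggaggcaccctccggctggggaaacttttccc

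Col1a1 was measured by 3 probes, and its sister probes did not follow the one that was detected. A single-spot probe (A_66_P101466) read 22.4 ± 3.7 on the Egr1-deficient-labelled array, well above background, and 13.3 ± 3.7 on the WT array, not well above background. Taking the lowest signal called on the WT array as the limit, Col1a1 was at least 1.31-fold higher on the Egr1-deficient-labelled array by this probe. Such at-least folds leave out the scanner error and are not firm lower limits. The other 2 probes were printed 10 times each, which makes them the only member probes with repeated spots. Neither was above background on either array. The probe A_52_P525107 read from 3.61 to 9.91 with a median of 5.23 over its 10 spots on the Egr1-deficient-labelled array, and from 4.05 to 41.9 with a median of 7.01 on the WT array. The probe A_55_P2118520 read from 3.02 to 36.6 with a median of 4.54 on the Egr1-deficient-labelled array, and from 3.29 to 5.31 with a median of 3.81 on the WT array. The spots of the arrays overlapped in both probes, and the medians lay in opposite directions.

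The highest spot in each set stood alone. The reading of 36.6 on the Egr1-deficient-labelled array and the reading of 41.9 on the WT array were the only spots of these 2 probes called well above background, 1 of 10 in each case, and the scanner program marked both as outliers. Each such spot was left out on both arrays. Over the 9 spots that remained, the mean log2 difference was −0.31 for A_52_P525107 and −0.02 for A_55_P2118520, with 0 of 9 spots above background on either array. A single bright spot at this level therefore occurred on each array in a probe whose other 9 spots were dim, whereas all other member probes rest on 1 spot.

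**Figure D2:**
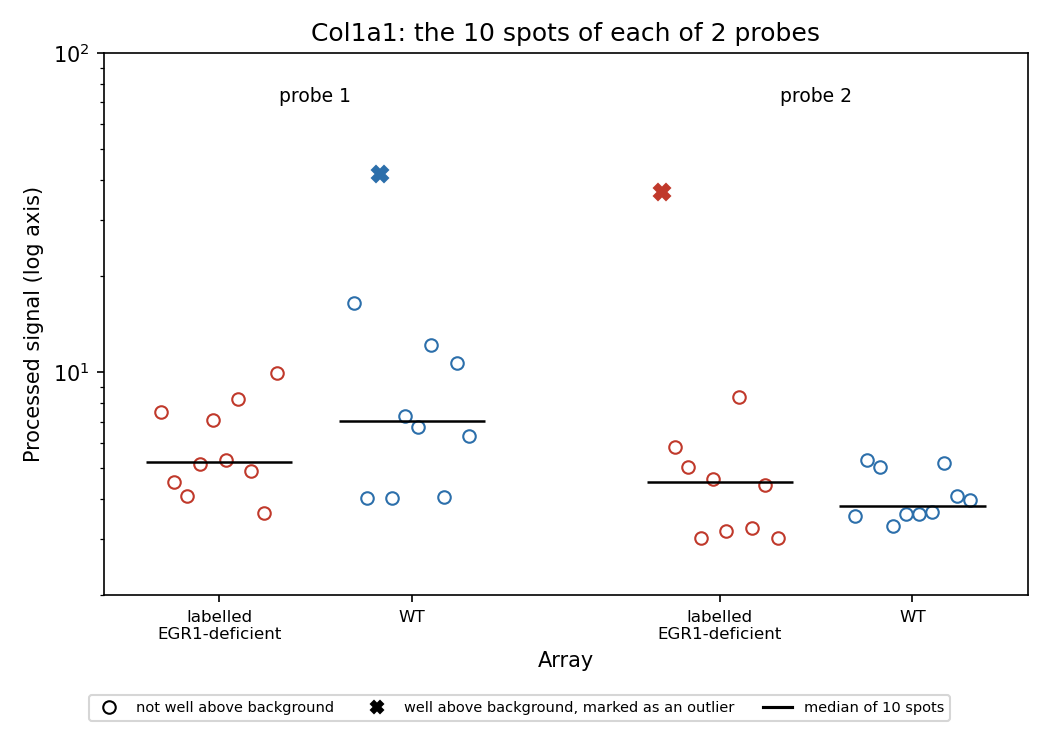
Processed signal (log axis) of the 10 spots of each of the 2 repeated Col1a1 probes (probe 1 is A_52_P525107, probe 2 is A_55_P2118520), the Egr1-deficient-labelled array left of WT. Lines are medians of 10 spots, open points are not well above background, and crosses are the spots marked as outliers, 41.9 on WT for probe 1 and 36.6 on the Egr1-deficient-labelled array for probe 2.

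Col3a1 encodes the chain of type III collagen, which forms fine reticular fibres together with type I. Its probe read 16.1 ± 3.2 on the Egr1-deficient-labelled array and 10.1 ± 3.4 on the WT array. It was called on the Egr1-deficient-labelled array only, but 16.1 lies below 16.3, the lowest signal called on the WT array. No at-least fold can be given, because no spot at that level was called on the WT array.

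Dcn and Lum encode decorin and lumican, small leucine-rich proteoglycans that bind collagen fibrils, and both genes lie on chromosome 10. Dcn read 31.2 ± 4.6 on the Egr1-deficient-labelled array, well above background, and 12.8 ± 4.2 on the WT array, not well above background. This made Dcn at least 1.83-fold higher on the Egr1-deficient-labelled array, the largest bound among the 3 members called on 1 array. Lum read 3.18 on the Egr1-deficient-labelled array and 3.83 on the WT array, with error estimates of 3.19 on the Egr1-deficient-labelled array and 3.84 on WT, and its raw spot median of 51 on the Egr1-deficient-labelled array was the same as that of the median negative control.

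Sparc and Postn encode SPARC and periostin, secreted proteins that bind collagen and are made by fibroblasts and bone-forming cells. The probes of Sparc read 10.6 and 10.2 on the Egr1-deficient-labelled array, against 7.55 and 7.0 on the WT array. None of the 4 readings was well above background, but all passed the program's looser flag for a positive and significant signal. Postn had 3 probes, of which A_55_P2619020 read 14.0 ± 3.4 on the Egr1-deficient-labelled array and 8.45 ± 3.8 on the WT array, and A_55_P2503766 read 11.7 ± 3.2 on the Egr1-deficient-labelled array and 4.38 ± 3.6 on WT. The third, A_51_P489192, read 3.89 on the Egr1-deficient-labelled array and 3.74 on the WT array. In A_55_P2619020 and in both Sparc probes the error bars of the arrays overlapped, and no fold is given for genes below background on both arrays.

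Pdgfra and Pdgfrb encode the receptor tyrosine kinases for PDGF, which mark fibroblast-like cells and pericytes, and the pair behaved differently. Pdgfrb (A_51_P150964, gene on chromosome 18) read 59.4 ± 6.8 on the Egr1-deficient-labelled array and 28.6 ± 4.9 on the WT array, well above background on both. The Egr1-deficient-labelled array was the higher by 0.99 ± 0.29 log2 units, or 1.99-fold, just under the 2-fold size used for counting. Pdgfra was at the floor in all 3 probes, with 2.87, 3.32 and 3.43 on the Egr1-deficient-labelled array and 3.58, 4.08 and 4.05 on the WT array. None of these 6 readings passed even the looser flag. Pdgfra, a common marker of marrow mesenchymal cells, was therefore not detected on either array, while Pdgfrb was detected on both.

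Cxcl12 encodes the stromal chemokine that binds the receptor CXCR4. Its 2 probes target different transcripts of the gene in the array's annotation. The probe A_51_P172502 read 42.6 ± 5.1 on the Egr1-deficient-labelled array and 20.7 ± 3.9 on the WT array, above background on both. The Egr1-deficient-labelled array was the higher by 0.98 ± 0.32 log2 units, or 1.97-fold. The probe A_55_P1966204 read 3.01 on the Egr1-deficient-labelled array and 3.36 on the WT array and was detected on neither. The gene's signal rests on the first probe alone.

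The promoter window of Cxcl12 (chr6:117168285-117168584, plus strand, GRCm38.p6) is shown beside that of Col1a2 because it is the other member above background on both arrays whose window can be printed. Its capitals mark overlapping GC boxes, GGGGCGGGG on either strand, which begin 18 and 13 bases before the transcript start.
Cxcl12: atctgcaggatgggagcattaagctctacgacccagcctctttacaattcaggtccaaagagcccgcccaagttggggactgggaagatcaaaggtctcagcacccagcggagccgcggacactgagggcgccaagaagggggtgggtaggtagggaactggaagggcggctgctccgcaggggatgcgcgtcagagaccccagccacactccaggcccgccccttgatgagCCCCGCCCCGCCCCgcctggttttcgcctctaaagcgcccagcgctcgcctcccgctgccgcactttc

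RefSeq windows were found for 6 of the 10 members, 7 windows in all. None of the 7 held the EGR1 motif GCGTGGGCG or its variant GCGGGGGCG on either strand, and these occur in 0.612% and 2.91% of all 32851 windows. The GC box, which overlaps the variant in part, was in 1 of 7 windows, that of Cxcl12, against 11.4% of all windows. The letters TATAAA, the core of the TATA box, were in 2 of 7, in Col3a1 and in one of the windows of Postn, against 13.6%. A match describes the letters in the window and no more.

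The 3 members above background on both arrays had like differences, from 0.98 to 1.05 log2 units, with a median of 0.99. Of these, 1 of 3 was 2-fold or more higher on the Egr1-deficient-labelled array and none was 2-fold or more lower, against 0.707% higher and 1.01% lower of 13725 genes above background on both arrays. All 3 lay within 1 scanner error of 2-fold, so the count of 1 turns on differences smaller than the error. The median difference of all 13725 genes was −0.05. The 3 members had low signals. Among 3825 genes with a geometric mean signal of 20 to 80, a range set after the members' values were seen, 1.75% were 2-fold or more higher and 2.56% lower, the median difference was 0.03 and the differences ran from −0.74 at the 5th percentile to 0.72 at the 95th. Each of the 3 lay above that range. Technical spread between probes was wider there than over all genes. Genes with 2 probes in this range had a median SD of 0.27 between the probes' differences (root mean square 0.43, 584 genes), against 0.17 over all 3571 such genes (root mean square 0.31). On the Egr1-deficient-labelled array the negative controls were higher in net signal and lower in processed signal, and detection was wider. The part of each in these differences was not tested.

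**Figure D3:**
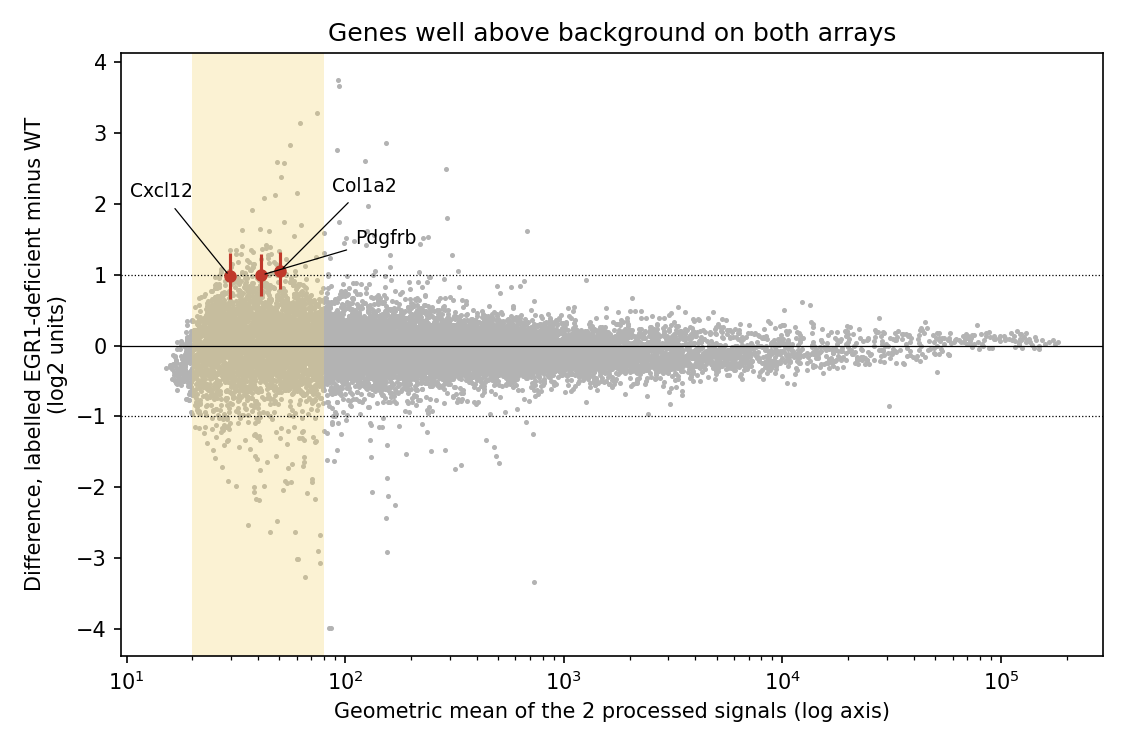
Difference (log2 units, Egr1-deficient-labelled minus WT) against the geometric mean of both processed signals (log axis) for 13725 genes above background on both arrays. Col1a2, Pdgfrb and Cxcl12 are red with scanner error bars, the band marks signals of 20 to 80, and dotted lines mark 2-fold; the 3 genes lie close to 2-fold, above most genes of similar signal.

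Detection on 1 array only was itself uneven between the arrays. Of all genes, 1296 were called on the Egr1-deficient-labelled array only and 385 on the WT array only. Of the 1296, 325 read no higher than the lowest signal called on the WT array after scaling, as Col3a1 did, and 192 (14.8%) were at least 2-fold higher. The median at-least fold was 1.19 over the 1296 genes and 2.05 over the 385, which were lower on the Egr1-deficient-labelled array. The bounds of Dcn (1.83) and Col1a1 (1.31) were above the first median and below 2-fold.

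Genes near the 10 in function were read from lists, which were drawn up with earlier results of these data known. Signals are processed signals as above, and a value in parentheses after them is the scaled log2 difference. Of 16 other collagen genes, 3 were above background on both arrays, 3 on the Egr1-deficient-labelled array only and 10 on neither. The fibrillar chain gene Col11a1 read 32.2 on the Egr1-deficient-labelled against 22.9 on the WT array (0.43), Col18a1, which encodes a basement membrane collagen, read 33.1 on the Egr1-deficient-labelled against 27.4 on the WT array (0.21), and the microfibril chain gene Col6a2 read 104 on the Egr1-deficient-labelled against 99.7 on the WT array (−0.01). Col5a1, whose product joins type I fibrils, was at least 1.13-fold higher on the Egr1-deficient-labelled array. None of the 3 collagens measured on both arrays was 2-fold apart. Of 6 other leucine-rich proteoglycan genes, Fmod, which encodes fibromodulin, was above background on both arrays at 336 on the Egr1-deficient-labelled against 297.6 on the WT array (0.11), and the other 5, decorin's closest relative Bgn among them, on neither.

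Enzymes and chaperones that modify, fold and cross-link collagen were read next. Of 18 such genes 11 were above background on both arrays, near the share of 57.7% of all genes, with a median difference of −0.15, and 4 were above 0 and 7 below. P4ha1, a prolyl hydroxylase subunit, read 350 on the Egr1-deficient-labelled against 527 on the WT array (−0.66, another probe −0.28), the lysyl hydroxylase gene Plod1 163 on the Egr1-deficient-labelled against 209 on the WT array (−0.43) and Crtap, which encodes a subunit of the prolyl 3-hydroxylase complex, 536 on the Egr1-deficient-labelled against 674 on the WT array (−0.40). Serpinh1, the collagen chaperone, was called on the Egr1-deficient-labelled array only, at 15.6 on the Egr1-deficient-labelled against 4.93 on the WT array, too low for a bound. Among 14 matricellular and elastic fibre genes, 4 were above background on both arrays, with a median of −0.26, 2 on the Egr1-deficient-labelled array only and 8 on neither. Fn1, which encodes fibronectin and is also made by macrophages, read 9549 on the Egr1-deficient-labelled against 13274 on the WT array (−0.54, another probe −0.32). In the same order, the thrombospondin gene Thbs1 read 6305 against 7587 (−0.33, another probe −0.18) and the fibulin gene Fbln1 31.7 against 23.1 (0.39). Ccn2, which encodes connective tissue growth factor, was at least 1.61-fold higher and the fibrillin gene Fbn1 at least 1.05-fold higher on the Egr1-deficient-labelled array.

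Partners of the receptors and the chemokine were read as well. Of the PDGF ligand genes, Pdgfa read 150 on the Egr1-deficient-labelled against 187 on the WT array (−0.38, another probe −0.80) and Pdgfb 231 on the Egr1-deficient-labelled against 207 on the WT array (0.09). Pdgfc was called on the WT array only, at 8.51 on the Egr1-deficient-labelled array and 112 on the WT array. By its single probe it was lower on the Egr1-deficient-labelled array by at least 8.79-fold. Pdgfd was detected on neither. Cxcr4, the signalling receptor for CXCL12, read 3541 on the Egr1-deficient-labelled against 3367 on the WT array (0.01, another probe 0.08), and Ackr3, a scavenging receptor for it, was not detected. Of 12 genes for collagen receptors and collagen uptake, 9 were above background on both arrays with a median of 0.08, or −0.04 when the arrays were scaled by their medians. The integrin gene Itga10 read 152 on the Egr1-deficient-labelled array and 20.5 on the WT array (2.82), the inhibitory receptor gene Lair1 59.0 on the Egr1-deficient-labelled against 86.4 on the WT array (−0.62) and the receptor kinase gene Ddr1 51.7 on the Egr1-deficient-labelled against 35.2 on the WT array (0.49). Itga11 was called on the WT array only, at 3.12 on the Egr1-deficient-labelled array and 110 on WT, at least 8.63-fold lower on the Egr1-deficient-labelled array. The collagen-binding integrin genes Itga10 and Itga11 thus stood far apart in opposite directions. Itga10 had 2 probes and no other probe of it was above background on both arrays, and Itga11 had 1 probe.

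Other markers of marrow stroma did not share one direction. Of 20 genes, 9 were above background on both arrays, 4 on the Egr1-deficient-labelled array only and 7 on neither. Over the 9 the median difference was −0.07, which became 0.08 in the authors' series table, with 4 above 0 and 5 below. The pericyte proteoglycan gene Cspg4 read 16.2 on the Egr1-deficient-labelled against 26.9 on the WT array (−0.80), the cadherin gene Cdh11 520 on the Egr1-deficient-labelled against 409 on the WT array (0.28, another probe 0.21) and the adhesion gene Mcam 74699 on the Egr1-deficient-labelled against 63630 on the WT array (0.16). The share of all genes called on the Egr1-deficient-labelled array only was 5.45%, and nothing is read from the 4 of 20. Markers of marrow reticular cells did not go together. Ebf3, Adipoq and Il7 were called on neither array, and Vcam1 was level on both (0.00, another probe −0.73). Among the 4 genes called on the Egr1-deficient-labelled array only, the 2 largest at-least folds were those of Lepr and Prrx1, which had 4 and 2 probes. No other probe of these 2 genes was above background on both arrays. The leptin receptor gene Lepr was at least 1.94-fold higher, at 33.2 on the Egr1-deficient-labelled against 16.3 on the WT array, and the limb mesenchyme factor Prrx1 at least 2.84-fold higher, at 48.5 on the Egr1-deficient-labelled against 9.86 on the WT array. Of the osteoblast genes 2 of 8 were above background on both arrays, Runx2 (−0.10, another probe −0.45) and Sp7 (0.08, another probe 0.35), 2 on the Egr1-deficient-labelled array only and 4 on neither. Of 8 endothelial genes 3 were above background on both, Pecam1 (0.42), Kdr (0.41) and Vwf (−0.33), and 5, among them the endothelial cadherin gene Cdh5 and the angiopoietin receptor gene Tek, on neither.

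Over 5 of these lists together (collagens, proteoglycans, marrow stroma, osteoblast and endothelium), 18 of 58 genes were above background on both arrays, 9 on the Egr1-deficient-labelled array only, 0 on the WT array only and 31 on neither. The median difference of the 18 was 0.04, with 10 above 0 and 8 below, and 0 of 18 were 2-fold apart in either direction. Of all genes above background on both arrays, 0.707% were 2-fold or more higher and 1.01% lower, so a count of 0 among 18 is near the share over all genes. Detection on the Egr1-deficient-labelled array only, at 9 of 58 here and 5.45% over all genes, occurred in the collagen, marrow stroma and osteoblast lists, and nothing particular to these lists is read from it.

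**Figure D4:**
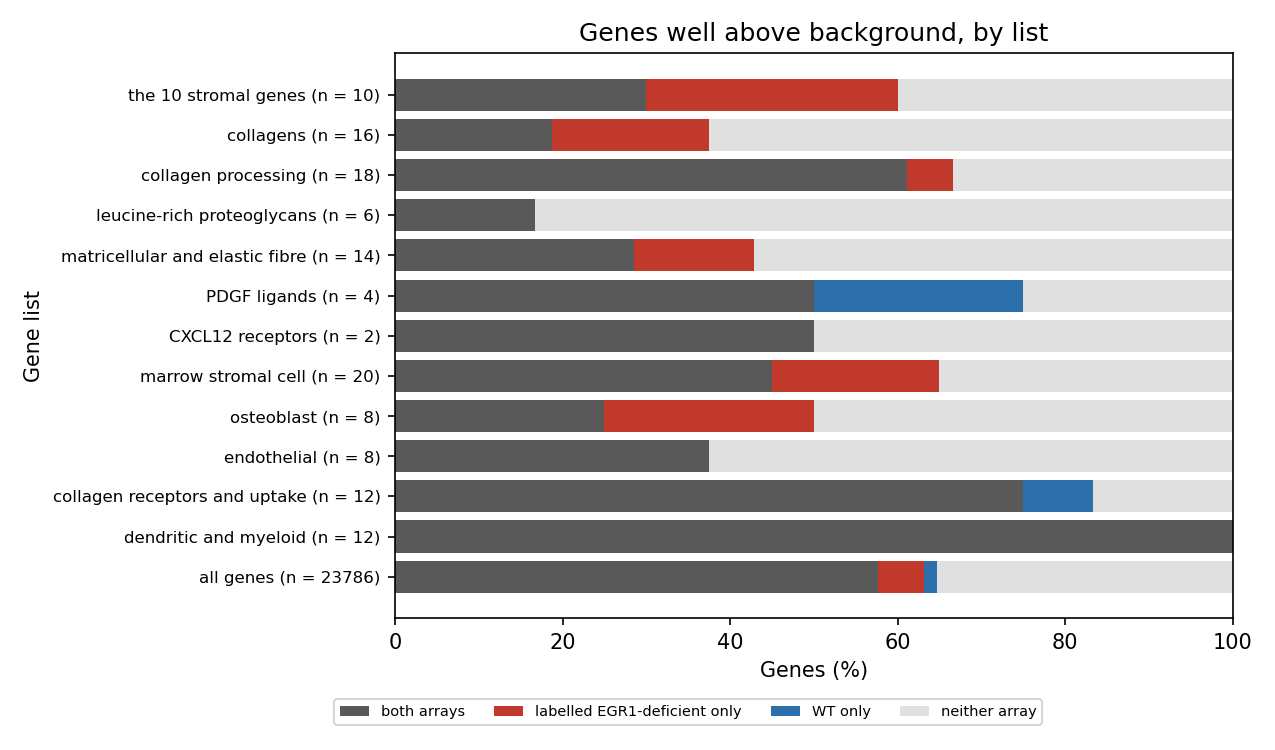
Share of genes (%) well above background on both arrays, on the Egr1-deficient-labelled array only, on WT only and on neither, for the 10 stromal genes, each list and all 23786 genes. Stromal, collagen and osteoblast bars have a red part and no blue part, as do those of collagen processing and of matricellular and elastic fibre genes. All 12 dendritic and myeloid genes were above background on both arrays.

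**Figure D5:**
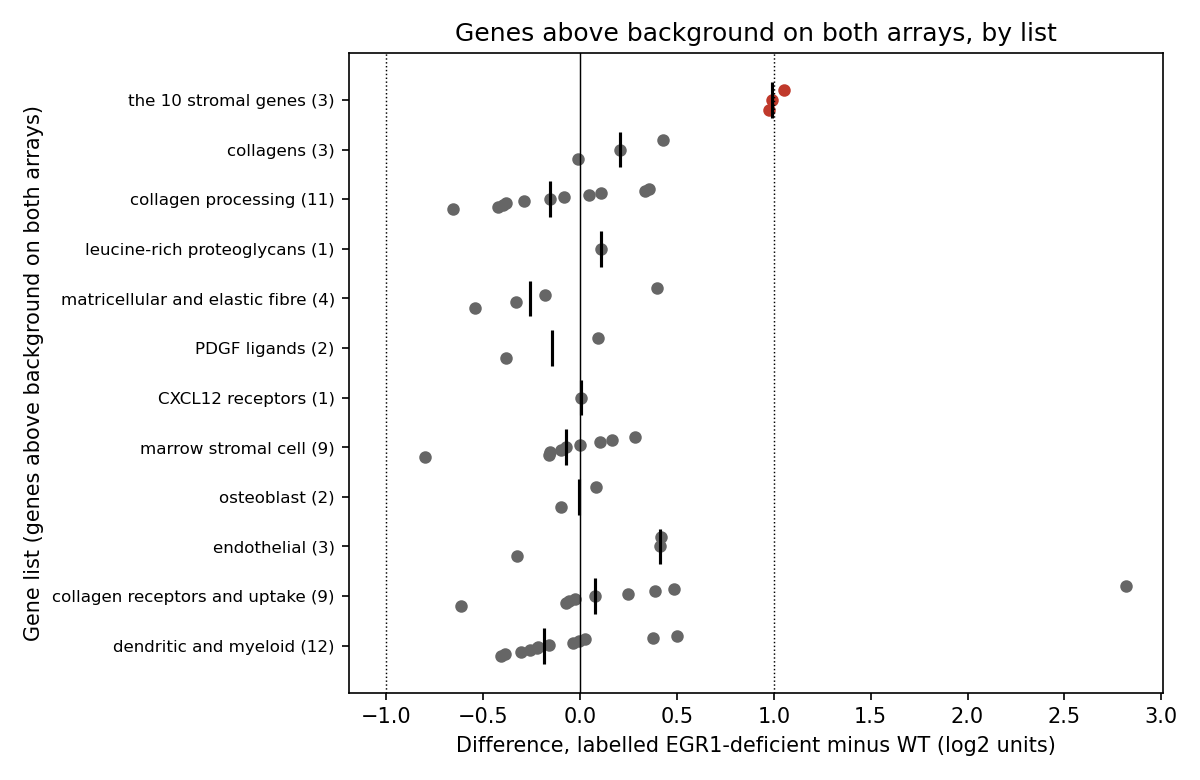
Difference (log2 units, Egr1-deficient-labelled minus WT) of each gene above background on both arrays, by list, with the list median as a line, the number of genes in parentheses and dotted lines at 2-fold. The 3 stromal genes lie at 0.98 to 1.05, and the medians of the other lists lie between −0.26 and 0.41.

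Most markers of the intended cells were bright on both arrays, but Flt3 and Zbtb46 were not. Flt3 read 135 on the Egr1-deficient-labelled against 91.1 on the WT array, and Zbtb46 122 against 119 in the same order. These readings lie below the 75th percentile of all spots, 191.6 on the Egr1-deficient-labelled array and 183.0 on WT. All 12 dendritic and myeloid genes were above background on both, with a median difference of −0.19, 3 above 0 and 9 below, and none was 2-fold apart. The leukocyte gene Ptprc read 4191 on the Egr1-deficient-labelled against 4784 on the WT array (−0.26, another probe 0.04). In the same order, the integrin genes Itgax and Itgam read 777 against 572 (0.37, another probe 0.18) and 37962 against 35671 (0.02, another probe 0.07). The MHC class II genes H2-Ab1 and Cd74 read 21791 against 20863 (0.00, another probe −0.10) and 18390 against 19617 (−0.16). The growth factor receptor genes Csf2ra (−0.22), Csf1r (−0.39, another probe −0.05) and Flt3 (0.50) were all within 1.5-fold. So were the lysozyme gene Lyz2 (−0.21), the dendritic cell factor Zbtb46 (−0.04), the costimulatory gene Cd86 (−0.41, another probe −0.28) and the macrophage gene Adgre1 (−0.30, another probe −0.17). All 12 markers were thus detected in both cultures.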

How the data were processed

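RNA of 1 culture labelled EGR1-deficient and 1 WT culture was read on 1 array each. The authors deposited spot intensities made with Agilent Feature Extraction 12.1.0.3, per the file headers (the submitters' processing notes name 11.5.1.1), background-subtracted and detrended by that program. Their series table holds the processed intensity multiplied by 6.18 on the Egr1-deficient-labelled array and 5.97 on WT, with no log scale or centring. It lists 29296 spots, all well above background on both arrays. No source used here says where those factors come from.

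From the processed intensities, log2 minus the log2 75th percentile over non-control spots was computed (Python 3.11.15, pandas 2.3.3). Spots marked as outliers on either array were left out (77 on the Egr1-deficient-labelled array and 79 on WT), and repeated spots were averaged. A repeated probe counted as above background where most of its spots were. No spot was saturated. Each probe took the gene name of its accession in the RefSeq gene table (GRCm38.p6), which served for names and chromosomes alone, the array design being on mm9 (34565 probes and 23786 genes named, 22038 probes unnamed here). A gene stands for its probe of highest mean signal. For genes called on 1 array, the at-least fold is the bright reading against the higher of the dim reading and the lowest signal called on the dim array, all after scaling. It leaves out the error of both readings. The lowest signal called is no strict detection limit, since a Col1a1 spot at 16.5 on the WT array was not called. Alternatives used limma 3.58.1. The files hold no mean spot signal, so normexp was run on median pixels. Counting steps were tested on simulated data. Array number limits the precision, and no p-value was computed.

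Members and lists were chosen with earlier results of these data known. Named in the text are all members with every probe, Egr1, per list up to 3 genes with the largest difference and up to 2 with the largest at-least fold, and all dendritic and myeloid markers. Serpinh1, Bgn, Pdgfd, Ackr3, Ebf3, Adipoq, Il7, Vcam1, Foxc1, Kitl, Cdh5, Tek, Xist and the Y-linked genes were named after their values were seen. No genes of like pattern are named, since a pattern over 2 arrays is a single difference.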

Additional observations from a re-analysis of the deposited data

How the results depend on the processing

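Col1a2, Pdgfrb and Cxcl12 read higher on the Egr1-deficient-labelled array under every alternative that measured them. This is a description and not a test of the direction. Dropping the filter and the looser flag leave these values unchanged by construction. Median scaling, the other 75th percentile and the series table each shift all genes by 1 constant. Apart from normexp, the difference ran from 0.94 to 1.17 for Col1a2, from 0.88 to 1.06 for Pdgfrb and from 0.83 to 1.05 for Cxcl12. After normexp they were 0.44, 0.34 and 0.27, with a median of 0.34. Its offset of 50, added to signals of this size, shrinks ratios by construction. Normexp also changes the background correction, and the part of each was not tested. The raw spot median minus the local background was 95.5 on the Egr1-deficient-labelled against 55 on the WT array for Col1a2. In the same order it was 71 against 43.5 for Pdgfrb and 54.5 against 35 for Cxcl12. The median was 0.67 over 10 genes without a filter on dim probes. The number of members 2-fold or more higher, 1 as reported, was 0 after normexp, median scaling, quantile and loess normalization, 3 with the 75th percentile taken over spots above background on both arrays, and 2 without a filter or with the looser positive and significant flag. The stricter filter left 0 members. The number above background on both arrays, 3 as reported, was 1 in the authors' series table (Col1a2, at 1.17), 8 with the looser flag, 10 without a filter and 0 with the stricter one. The 3 genes called on the Egr1-deficient-labelled array only became 0 in the series table, without a filter and with the looser flag, under which all were measured on both arrays.

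Over all genes, 97 were 2-fold or more higher and 138 lower. Higher against lower was 18 against 33 after normexp, 1280 against 971 without a filter, 632 against 529 with the looser flag and 43 against 74 with the stricter filter. Scaling moved the split: 68 against 191 by the median, 77 against 174 after quantile and 73 against 184 after loess normalization. In the series table, which differs in its scaling factors and also lists fewer spots (12772 genes), it was 103 against 68. Median scaling shifted the median of all genes to −0.17 from −0.05. It was 124 against 122 with the percentile over spots above background on both arrays. Of 69 list medians recomputed over 7 lists, 61 stayed within the typical spread between 2 probes of a gene, and 8 moved further. Of these 8, 3 changed sign, the collagen list to −0.0086 and the collagen processing list to 0.05 with the looser flag, and the endothelial list to −0.29 without a filter; the cause was not tested. The marrow stroma median, within that spread of 0, did not keep its sign. It was 0.08 in the series table, 0.035 with the looser flag and 0.01 after loess normalization. After quantile normalization it was 0.005, and with the stricter filter 0.002. The other settings left it below 0. The collagen receptor median was −0.04 after median scaling. The median of all genes was 0.06 in the series table. No paired analysis was possible because each group has 1 array. Signals of the members lie near background, and that limits every value here.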
